A study of Mus musculus with 4 samples.

Results

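The sites described here are candidate A-to-I RNA editing sites in short interspersed elements (SINEs), from mouse lung endothelial cells (ECs). These SINEs belong to none of the B1, B2 and B4 families. The sites lie in PB1, ID and MIR elements and in a few rarer ones. They are mismatches of reads to the genome, and DNA of these mice was not analysed here. A site was taken when the element it fell in was annotated as such a SINE and when, in at least 1 of 4 libraries, at least 5 reads covered it, at least 3 of them were altered, and the editing rate lay between 0.05 and 0.95. The editing rate is the number of altered reads divided by all reads with the reference or the altered base, given as a fraction. Of 15843 listed sites of this kind, 569 met the limits (3.59%), out of 24200 sites that met them in the whole series. The members were thus chosen by the measured read counts and rates of these libraries. A site could enter through a library in which its rate was high enough, so counts and means over these sites are descriptions.

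The libraries came from primary ECs of 2 male C57/BL6 mice of 2 litters, 2 weeks old, labelled as an inducible EC-specific ADAR1 knockout (i-KO). All 4 libraries carried the same floxed ADAR1 allele, in which exons 12 to 15 can be removed, and the driver of the inducible Cre is not given in the sources used here. The cells of each mouse were sorted with CD31 beads and cultured, and part of them received 4-OH-tamoxifen (TM) to induce the deletion while the rest stayed without it (CON), which gave CON and TM cultures of the mouse EC1 and of the mouse EC2. Values without a named library are given in this order, EC1 before EC2 and CON before TM. There was 1 library per mouse and condition, so the comparison of CON with TM was made inside each mouse with n = 2 mice, and a library without the floxed allele or with TM on unfloxed cells is not part of the comparison. The purpose was to find the editing that depended on ADAR1.

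SINEs are short copies of small structural RNAs that spread through the genome by reverse transcription, and many of them sit in introns and 3′ untranslated regions (UTRs). ADAR1 converts adenosine to inosine in double-stranded RNA, inosine is read as guanosine by the sequencer, and copies of a SINE that lie in opposite directions in one transcript can pair into such a duplex. PB1 (proto-B1) elements are rodent monomers derived from 7SL RNA and older than B1, ID elements are rodent copies related to the BC1 RNA, MIR elements were already present in the ancestors of living mammals, and LFSINE_Vert elements are shared more widely among vertebrates. FAM is a fossil monomer of the Alu group.

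The stretches shown next surround member sites called in the comparison of CON with TM, at least 1 from each of the MIR, PB1 and ID families, together with a site of the PB1 element that held most member sites and a site in an ID4 element of Atxn3. They were read from GENCODE vM21 transcripts (GRCm38, which is mm10), 5′ to 3′ on the strand of the gene, and capitals mark every A that is a member site.
Cds2, antisense MIRb in the 3′ UTR, chr2:132309619-132309647, plus strand: atcatacagtgcttAAtatgtgccagaca
Cds2, antisense MIRb in the 3′ UTR, chr2:132309655-132309683, plus strand: AAgggcttgcatgcAttatctcctttaat
Cds2, sense MIRb in the 3′ UTR, chr2:132309866-132309894, plus strand: gcatgtaAgcatttAgcaAggtgcctggc
Nras, PB1D10 in the 3′ UTR, chr3:103066076-103066104, plus strand: tgctgtgtagtcctAgctggcctcaaact
Rbm8a, PB1D9 in the 3′ UTR, chr3:96632699-96632727, plus strand: gcctcccaggtgctAggattaaaggcgtg
Usp45, PB1D9 in the 3′ UTR, chr4:21834534-21834562, plus strand: ttgtgcatgcctttAAttccagcActtgg
Ikbip, PB1D9 annotated as intron, chr10:91097728-91097756, plus strand: AAgactgtgtctcaAAacaaaacaaaaga
Dcaf10, PB1D9 in the 3′ UTR, chr4:45377128-45377156, plus strand: ccagactgccttcAAattcacagatgtcc
Ppp1r15b, ID4_ in the 3′ UTR, chr1:133137530-133137558, plus strand: ggatatagctcggtAgcagaggcccctgc
Atxn3, ID4 in the 3′ UTR, chr12:101921617-101921645, minus strand: cagtgtgctaggcaAgcgccctacctctg

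The count tables held 131796753 to 207323870 counts per library, of which 0.823% to 0.858% lay on genes, and the median depth at a passing member was 19, 14.5, 18 and 17 reads. Adar had 9 and 47 counts in CON and TM of EC1 and 16 and 71 in those of EC2, so its count was higher in both TM libraries. Within the floxed exons, listed sites of exons 12 to 14 had a median depth of 145 in EC1 CON (3 sites), 169 in EC2 CON (1 site) and 65.5 in EC2 TM (2 sites), with none listed in EC1 TM. Exon 15 had median depths of 99, 422, 156 and 835 over 9, 17, 2 and 15 listed sites. They were higher in TM, although the exon is stated to be deleted. The listed sites differ in number between the libraries, so depth was not compared at the same positions. The paper reports efficient removal of the floxed exons from the RNA of TM-treated ECs. It also reports almost complete loss of the protein in induced i-KO ECs by Western blot. The depths given here do not measure the deletion, and CON and TM stand for the libraries labelled so. All 8 endothelial markers had counts in every library, with 1014 to 1322 CPM in sum (gene counts scaled to the total on genes), against 31.9 to 50.2 for 5 leukocyte, 54.0 to 91.2 for 5 fibroblast and smooth muscle and 0.912 to 5.48 for 4 epithelial markers, and Lyz2 and Cd3e were at 0 in all 4. Gene counts and read depth at listed exonic sites were far apart: Cdh5 had 442 to 869 counts but median depths of 5781 to 10327, and Lyz2 had median depths of 14 to 41 in the 3 libraries that listed sites in it. The strand setting of the counting is not given in the sources used here, so a count of 0 in these tables does not show that a transcript was absent.

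PB1 elements held 444 of the 569 sites (78.0%), MIR elements 83, ID elements 40, and a FAM element in an intron of Sash1 and an LFSINE_Vert element in an intron of Clasp1 held 1 site each. Among the PB1 names, PB1D9 had 262 sites, PB1D10 96, PB1D7 52, PB1D11 19 and PB1 itself 15. MIRb had 38 of the MIR sites, MIR 24, MIRc 12 and MIR3 9, and ID4 and ID4_ had 17 and 16 of the ID sites. The share of listed sites that met the limits was 4.48% in PB1, with 7.04% in PB1D9, against 2.01% in ID and 2.19% in MIR. The same share was 6.22% in B1, 4.58% in B2 and 2.82% in B4.

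The 569 sites were spread over 459 elements and 366 genes, so that most elements had 1 site, and 73 elements had 2 or more. Sites of 1 element can share reads, and a duplex where one forms, so they are not taken as independent of each other. Of the genes, 115 had at least 2 of these sites and 10 had at least 5. Cds2, which encodes a CDP-diacylglycerol synthase, led with 10 sites, and Ccdc88c, Ppp1r13b, Slc35e1 and Usp45 were among the genes with 6. Introns held 400 of the sites (70.3%) and 3′ UTRs held 87 (15.3%, 95% Wilson interval 12.6 to 18.5). The 3′ UTR share was 15.5% in PB1, 17.5% in ID and 13.3% in MIR, where 10 of the 11 sites were those of Cds2, and it was 15.7% in B1, 5.66% in B2, 10.3% in B4 and 8.87% over all sites that met the limits.

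More sites met the limits in CON than in TM in each mouse, with 316 and 194 in CON and TM of EC1 and 272 and 243 in those of EC2. With the total of the count table, reads on no gene included, as the library size, this was 2.37, 1.47, 1.90 and 1.17 on the CPM scale. Both CON libraries lay above both TM libraries, which also held for all sites that met the limits when scaled in this way. Those numbered 11979, 9492, 10641 and 12232, and members were 2.64%, 2.04%, 2.56% and 1.99% of them. In PB1 alone the numbers of sites were 254, 146, 213 and 170. Before such scaling, MIR had 40, 35, 39 and 55 sites, with more in TM than in CON of EC2, and ID had 20, 12, 19 and 17. Of the 569 sites, 303 met the limits in 1 library and 60 in all 4.

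The mean editing rate over the member sites that met the limits in CON or TM of a mouse was lower in TM than in CON in both mice. It went from 0.332 to 0.272 in EC1 (388 sites) and from 0.346 to 0.289 in EC2 (374 sites), counting a site as 0 where a library did not list it. CON minus TM was 0.0588 ± 0.00237 (SD, n = 2 mice). The exact sign permutation test over 2 mice, two-sided, cannot give a p below 0.5, and it gave 0.5. Over sites outside repeats the same difference was 0.00467 in EC1 and -0.00270 in EC2.

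Counting a site as 0 where a library did not list it, each of the PB1, ID and MIR families had a positive difference in both mice. In PB1 the mean rate went from 0.305 to 0.250 in EC1 and from 0.315 to 0.248 in EC2, which is 0.0551 and 0.0668. In ID it went from 0.488 to 0.407 and from 0.473 to 0.419, over 26 sites in each mouse. Over ID sites with at least 5 reads in both libraries of the mouse, CON minus TM was 0.0772 in EC1 and -0.0821 in EC2. In MIR the mean rate went from 0.415 to 0.336 in EC1 and from 0.435 to 0.419 in EC2, over 50 and 62 sites. The B1 family had 0.0847 and 0.0709, B2 0.0499 and 0.0429, and B4 0.0243 and 0.0192, so PB1 lay between B1 and B2 in both mice. PB1 minus B1 was -0.0296 in EC1 and -0.00405 in EC2, and its exact sign p was 0.5, the smallest that 2 mice allow.

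**Figure D1:**
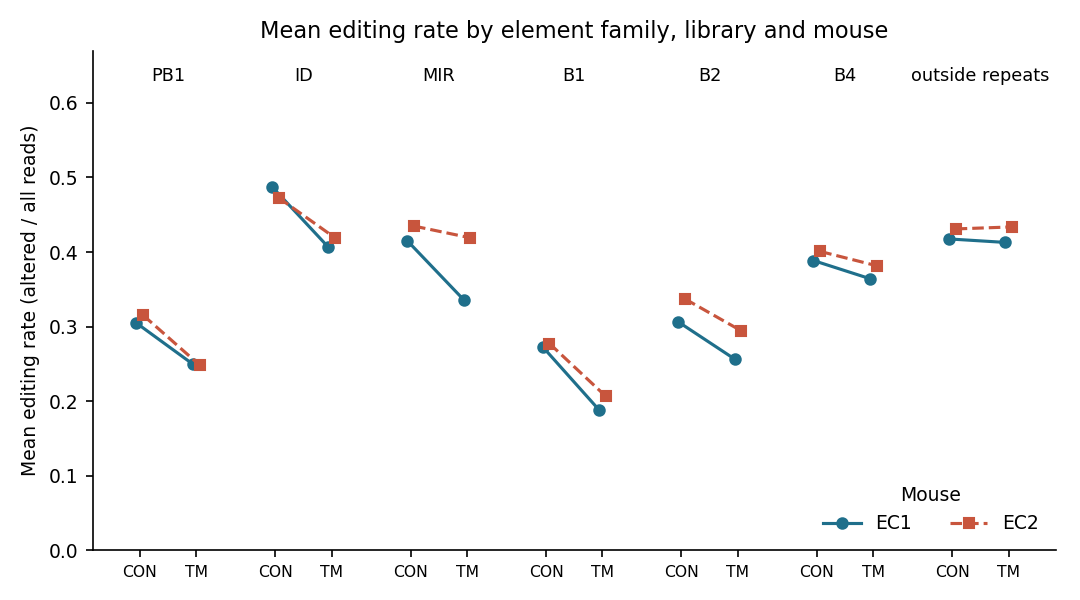
Mean editing rate (altered reads divided by all reads) in CON and TM for PB1, ID, MIR, B1, B2, B4 and sites outside repeats, with circles and full lines for mouse EC1 and squares and dashed lines for EC2, without error bars since each point is 1 library. PB1 went from 0.305 to 0.250 in EC1 and from 0.315 to 0.248 in EC2, MIR from 0.435 to 0.419 in EC2, and the lines outside repeats are close to flat.

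The comparison of PB1 with the ancient families did not come out the same way in both mice. The ancient group joined the 83 MIR sites and the LFSINE_Vert site, and the FAM site stood in neither group. CON minus TM in the ancient group was 0.0803 in EC1 and 0.0146 in EC2 (0.0474 ± 0.0464, SD, n = 2 mice). PB1 minus the ancient group was -0.0251 in EC1 and 0.0522 in EC2, with a mean of 0.0135 ± 0.0547 and an exact sign p of 1. The difference between PB1 and the ancient group was smaller than its spread between the mice, and the smallest p that the sign test can give with 2 mice is 0.5. Against ID, the other younger family, the order depended on the depth required. With the limits of the rule, the ancient group minus ID was -0.000932 in EC1 and -0.0392 in EC2, with an exact sign p of 0.5 and 26 ID sites in each mouse. At a minimum depth of 10 the ancient group was higher in both mice, with 0.0736 and 0.0480 against 0.0330 and 0.0292 in ID. At a depth of 20 the values were 0.0958 and 0.0855 against 0.0232 and 0.0561. The ancient group also rested on Cds2: without its 10 sites the difference was 0.0583 in EC1 and -0.0184 in EC2, and that of MIR alone was 0.0565 and -0.0177.

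Within PB1 the names differed in sign. PB1D9 had 0.0748 in EC1 and 0.0856 in EC2, PB1D7 0.0829 and 0.0722, and PB1D10 0.0288 and 0.0635. The elements named PB1 had -0.117 and -0.119 over 9 and 11 sites, and PB1D11 had -0.00752 and -0.0763 over 16 and 8 sites. MIRb had 0.0777 and 0.0919 and ID4 had 0.136 and 0.0854, while MIR, MIRc, MIR3 and ID4_ changed sign between the mice. The LFSINE_Vert site in Clasp1, a microtubule-binding protein, had 5 of 13 and 1 of 4 altered reads in CON and TM of EC1 and 5 of 10 and 5 of 9 in those of EC2, without a common direction. The FAM site in Sash1 had 24 of 38 in EC1 CON and 18 of 39 in EC1 TM and was not listed in EC2.

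Sites were next counted by direction. CON was called above TM when the rate in CON was higher by at least 0.05, with a depth of at least 5 in CON, of which at least 3 reads were altered, and a CON rate no higher than 0.95, and TM above CON the other way round. In EC1, 206 of 388 member sites were higher in CON (53.1%), against a background of 43.5% over all sites, and 92 were higher in TM (23.7%), against 28.6%. In EC2, 183 of 374 were higher in CON (48.9%, background 37.2%) and 106 in TM (28.3%, background 33.4%). In both mice together, 67 of 193 sites were higher in CON (34.7%, background 21.2%), 11 were higher in TM (5.70%, background 11.3%), and 40 went opposite ways. A library that did not list a site counted as a rate of 0 here. With at least 5 reads required in both libraries of each mouse, 46 sites were higher in CON and 5 higher in TM.

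PB1 had 54 of 151 sites higher in CON in both mice (35.8%) and 9 higher in TM, MIR 11 of 29 (37.9%) and 1, and ID 2 of 12 and 1. For comparison B1 had 38.2%, B2 27.4% and B4 27.7% higher in CON. Without Cds2, MIR had 3 of 20 (15%), which is below the background. PB1D9 alone gave 37 of 91, and the elements named PB1 gave 0 of 5. Of the 67 sites, 30 were in 3′ UTRs and 29 in introns, and of the 11 sites higher in TM none was in a 3′ UTR and 8 were in introns. Over all sites, 446 of the 1779 higher in CON in both mice were in 3′ UTRs and 861 in introns. Of the 949 higher in TM in both mice, 27 were in 3′ UTRs and 615 in introns, so few sites of this kind lay in 3′ UTRs in the whole series too.

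A Fisher exact test on the reads of CON and TM at each site, two-sided and adjusted by Benjamini-Hochberg over all sites tested in the mouse, compares the libraries of 1 mouse and not the conditions. In EC1, 4 of 236 member sites were called higher in CON (1.69%, against a background of 0.898% over all sites) and 0 higher in TM (background 0.0612%), with 21 and 5 at an unadjusted p under 0.05. Of all 9800 sites tested in EC1, 511 were higher in CON and 149 higher in TM at that unadjusted p. In EC2, 14 of 243 member sites were called higher in CON (5.76%, background 2.37%) and 0 higher in TM (background 0.0865%), with 41 and 1 at an unadjusted p under 0.05. Of all 10402 sites tested in EC2, 882 were higher in CON and 136 higher in TM at that unadjusted p. PB1 had 2 of 185 called higher in CON in EC1 and 10 of 187 in EC2, which is 1.08% and 5.35%, against 2.37% and 5.89% in B1. The calls came to 15 distinct sites in 11 elements and 10 genes, of which 10 were in PB1, 4 in MIR and 1 in ID. In the annotation, 12 of them were in a 3′ UTR, 2 in an intron and 1 downstream of a gene. When the mouse was taken as a block in a Cochran-Mantel-Haenszel chi-square test, 29 of 120 member sites were higher in CON (background 7.81%) and 1 was higher in TM (background 0.629%), and 14 of the 15 sites were among them. With the reads of both mice summed, 20 of 359 were higher in CON (background 2.52%) and 2 higher in TM (background 0.23%), and 12 of the 15 were among them.

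Among sites listed in all 4 libraries, the largest mean difference over the mice was in Cds2. Site 132309880, in the sense MIRb copy, had 64 of 87 altered reads in EC1 CON (rate 0.736, 95% Wilson interval 0.634 to 0.817) and 8 of 46 in EC1 TM (0.174, 0.0909 to 0.307). In EC2 it had 88 of 106 in CON (0.830, 0.747 to 0.890) and 19 of 93 in TM (0.204, 0.135 to 0.297). Both CON libraries were far above both TM libraries, and the adjusted p of the Fisher exact test was 4.39e-07 in EC1 and 3.75e-16 in EC2. Such intervals cover counting error only, since the reads carry no molecular identifiers.

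The antisense MIRb copy of Cds2 held 3 more called sites. Site 132309633 had rates of 0.413 and 0.0851 in CON and TM of EC1 and 0.459 and 0.231 in those of EC2, and it was called in EC1 (adjusted p of the Fisher exact test 0.0225). Site 132309669 had 0.327, 0.0588, 0.372 and 0.0638 in the same order and was called in EC2 (0.00698), and site 132309655 had 17 of 54, 5 of 39, 32 of 80 and 7 of 54 altered reads and was called in EC2 (0.0384). At all 3 sites the CON and TM libraries did not overlap, where the call itself had set the order in the mouse it was made in. The other 6 sites of the pair had lower rates, at most 0.185 in CON and at most 0.0952 in TM, and 8 of the 10 sites were higher in CON in both mice by the rate limits. Directly beside 132309633, site 132309634 had 2 of 65, 2 of 48, 9 of 99 and 5 of 63 altered reads, without a difference between CON and TM.

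**Figure D2:**
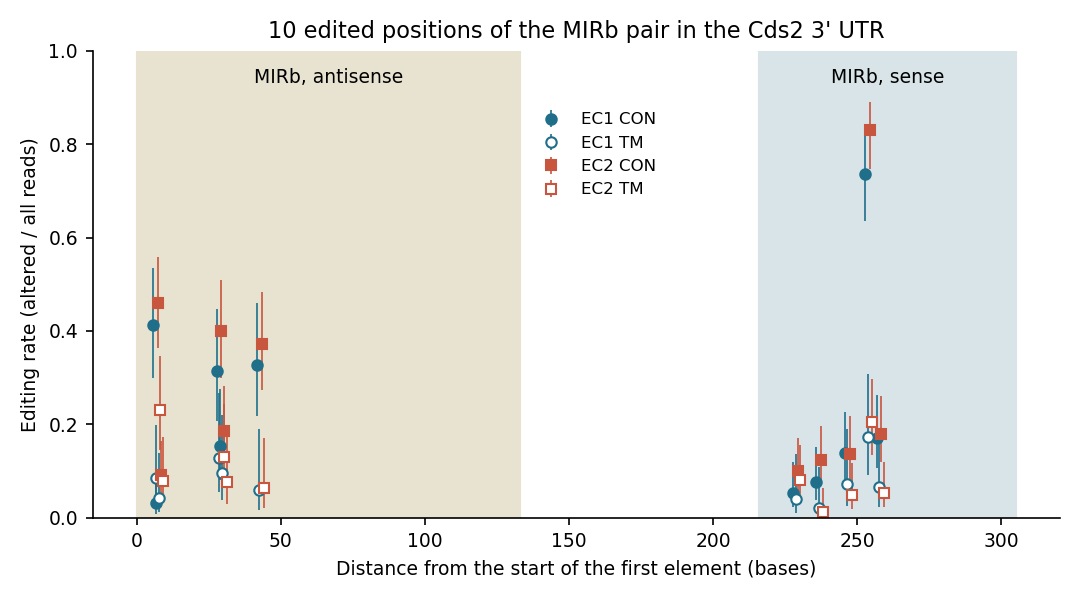
Editing rate (altered reads divided by all reads) at the 10 member sites of Cds2 against the distance in bases from the start of the antisense MIRb element, with shading for the 2 elements, filled marks for CON, open marks for TM, circles for EC1, squares for EC2 and bars for 95% Wilson intervals. Site 132309880, in the sense copy, stands at 0.736 and 0.830 in CON and at 0.174 and 0.204 in TM, and the 3 highest sites of the antisense copy lie between 0.315 and 0.459 in CON.

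In PB1, 2 sites were called in both mice. Nras encodes a small GTPase of the Ras family, and site 103066090 in the PB1D10 element of its 3′ UTR had 87 of 290 altered reads in EC1 CON (interval of the rate 0.250 to 0.355), 49 of 337 in EC1 TM (0.145, 0.112 to 0.187), 152 of 416 in EC2 CON (0.365, 0.321 to 0.413) and 120 of 759 in EC2 TM (0.158, 0.134 to 0.186). It was the deepest member, its CON and TM libraries did not overlap, and the adjusted p of the Fisher exact test was 0.00116 in EC1 and 1.98e-12 in EC2. Rbm8a encodes a subunit of the exon junction complex. Site 96632713 in its PB1D9 element had 25 of 52, 7 of 50, 40 of 103 and 17 of 119 altered reads, which is 0.481, 0.140, 0.388 and 0.143. The CON libraries were again above the TM libraries, with adjusted p values of the Fisher exact test of 0.0292 and 0.00386.

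The other 8 PB1 calls were made in EC2 alone, so the call itself set the order of the EC2 libraries. At 7 of them both CON rates were above both TM rates, the other being Tox4 52294229, which EC1 TM did not list. How often such an order occurs over all sites was not counted, so it is given as a description. Ikbip, named for an interacting protein of an NF-kappa-B kinase, had 2 of them in a PB1D9 element with 4 sites, and 91097742 had rates of 0.159, 0.0606, 0.407 and 0.0794 (adjusted p of the Fisher exact test 0.000393), so that EC2 CON stood out from the other 3 libraries. Dcaf10, a substrate receptor of CUL4 ubiquitin ligases, had 2 neighbouring sites, of which 45377142 had 0.185, 0.0652, 0.357 and 0.0693 (0.000588). Mier1, a corepressor that binds histone deacetylases, had the lowest rates of all calls at 103164739, with 9 of 138, 3 of 194, 15 of 184 and 3 of 331 altered reads (0.00289). In Urb2, a ribosome biogenesis factor, 124047800 had 7 of 42, 6 of 82, 19 of 65 and 8 of 146 (0.000732), and in St3gal2, a sialyltransferase, 110972577 had 5 of 30, 2 of 25, 9 of 33 and 1 of 50 (0.0376).

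Tox4, which encodes an HMG-box protein, was the exception in level. Site 52294229 in its PB1D9 element had 90 of 131 altered reads in EC1 CON, 140 of 167 in EC2 CON and 139 of 208 in EC2 TM, and EC1 TM did not list it, though that library listed the other 3 sites of the element at depths of 169 to 173. The rates of 0.687, 0.838 and 0.668 were high in CON and TM alike, and the adjusted p of the Fisher exact test in EC2 was 0.0128. The nearby site 52294216 had 0.143 and 0.0520 in CON and TM of EC1 and 0.147 and 0.0601 in those of EC2, with CON above TM in both mice.

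**Figure D3:**
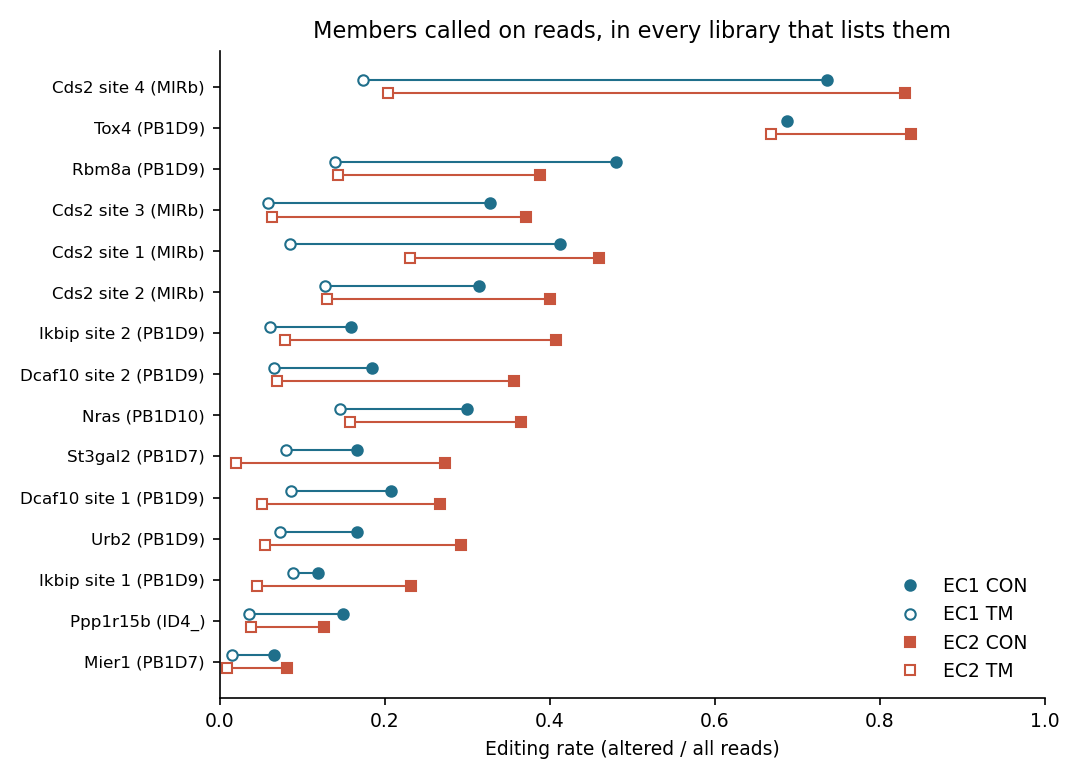
Editing rate (altered reads divided by all reads) of the 15 sites called by the Fisher exact test in a mouse, with filled marks for CON and open marks for TM, circles for EC1 and squares for EC2, and a line joining the libraries of a mouse. Where both libraries of a mouse listed a site, the open mark lies left of the filled mark, from 0.736 to 0.174 in EC1 at the top site to 0.0652 to 0.0155 in EC1 at Mier1, and Tox4 has no mark for EC1 TM because that library did not list it.

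The ID call was in Ppp1r15b, which encodes a subunit that directs protein phosphatase PP1 to eIF2alpha. Site 133137544 in its ID4_ element had 16 of 107 altered reads in EC1 CON (0.150, interval 0.0942 to 0.229), 7 of 196 in EC1 TM (0.0357, 0.0174 to 0.0719), 17 of 134 in EC2 CON (0.127, 0.0807 to 0.194) and 13 of 338 in EC2 TM (0.0385, 0.0226 to 0.0647). The groups did not overlap, and the Fisher exact test called it in EC2 (adjusted p = 0.0476). The same element held 2 more member sites with lower rates, of which 133137561 had 9 of 93, 3 of 185, 9 of 136 and 7 of 305. A second ID site, 101921631 in an ID4 element of Atxn3, a deubiquitinase, had 7 of 43, 1 of 47, 15 of 71 and 7 of 97, with CON above TM in both mice by 0.142 and 0.139, and it was called only with the mouse as a block (adjusted p = 0.00991 in the Cochran-Mantel-Haenszel chi-square test). These were the 2 ID sites higher in CON in both mice by the rate limits. Mbd5, a methyl-CpG-binding domain protein, held the one ID site that met the limits in all 4 libraries, with 9 of 17, 5 of 17, 9 of 19 and 18 of 37 and no common direction.

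Among sites listed in all 4 libraries, large differences were also seen at low depth. In Nek6, a mitotic kinase, the intronic MIR site 38583241 had 11 of 13, 3 of 10, 5 of 6 and 5 of 10 altered reads. Usp45, a deubiquitinase, had 11 of 18, 1 of 9, 9 of 18 and 4 of 28 at 21834548, and Nop2, an rRNA methyltransferase, had 7 of 19, 2 of 20, 11 of 27 and 4 of 38 at 125138798. These 3 sites were picked among the largest differences with CON above TM in both mice, which partly set the order of their libraries. In each of the 3 genes both CON libraries were above both TM libraries, and none of the 3 sites passed the test in a mouse. Usp45 (adjusted p = 0.00795) and Nop2 (0.0111) passed it with the mouse as a block in the Cochran-Mantel-Haenszel chi-square test. The intronic PB1D10 site 38036741 of Eif5b, a translation initiation GTPase, had 4 of 6, 4 of 9, 6 of 7 and 1 of 4, and 128140010 near 9330102E08Rik had 21 of 31, 3 of 15, 12 of 22 and 12 of 34.

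The site furthest in the other direction was in F11r, which encodes the junction protein JAM-A of ECs. Its intronic PB1D10 site 171454084 had 4 of 28 altered reads in EC1 CON (0.143, interval 0.0570 to 0.315) and 10 of 18 in EC1 TM (0.556, 0.337 to 0.754), and 1 of 9 in EC2 CON and 13 of 19 in EC2 TM (0.684, 0.460 to 0.846). TM was above CON in both mice, and the site was the only member called higher in TM with the mouse as a block (adjusted p = 0.00156 in the Cochran-Mantel-Haenszel chi-square test), while neither mouse called it alone. Rasal2, a Ras GTPase activator, had 12 of 19, 11 of 12, 1 of 4 and 5 of 8 at 157159697, and Rin3, a Rab5 exchange factor, had 2 of 6, 5 of 10, 1 of 3 and 8 of 11 at 102315014. Glrx5 and Foxn3 followed with mean differences of -0.233 and -0.167, on depths of 6 to 23.

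Among PB1 sites that met the limits in all 4 libraries, the deepest beside Nras included sites with little difference. Sh2d1b2 had 98 of 222, 68 of 142, 108 of 250 and 129 of 259 altered reads at 170195508, which is 0.441, 0.479, 0.432 and 0.498, close to the middle of the scale and slightly higher in TM in both mice. Nfat5, a transcription factor of the response to hypertonicity, had 0.108, 0.0929, 0.102 and 0.0851 at 107335106, and Slc35e1, a member of a solute carrier family, had 0.0828, 0.0775, 0.139 and 0.0622 at 72482340. None of the 3 was called in either mouse or with the mouse as a block.

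Sites were not spread evenly over the genome. The genome was divided into bins of 5 Mb, and 24 of 481 bins held at least 100 passing sites outside repeats each (called dense bins here), so that member sites had no part in defining them. These 24 bins held 33.9% of all passing sites and 179 member sites (31.5%), with 24.8% of PB1, 52.5% of ID and 56.6% of MIR sites, against 12.2% of B1, 15.4% of B2 and 43.1% of B4 sites and 47.0% of those outside repeats. The rates inside were different: of the 179 member sites, 77.7% had a rate between 0.3 and 0.7 with the reads of all 4 libraries joined, against 26.7% of the other 390, and the median was 0.514 against 0.2. Of the sites inside, 28.5% were listed in 1 mouse only, against 8.97%. DNA of these mice was not analysed here, so at a single site a variant of the genome and an edited base cannot be told apart.

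**Figure D4:**
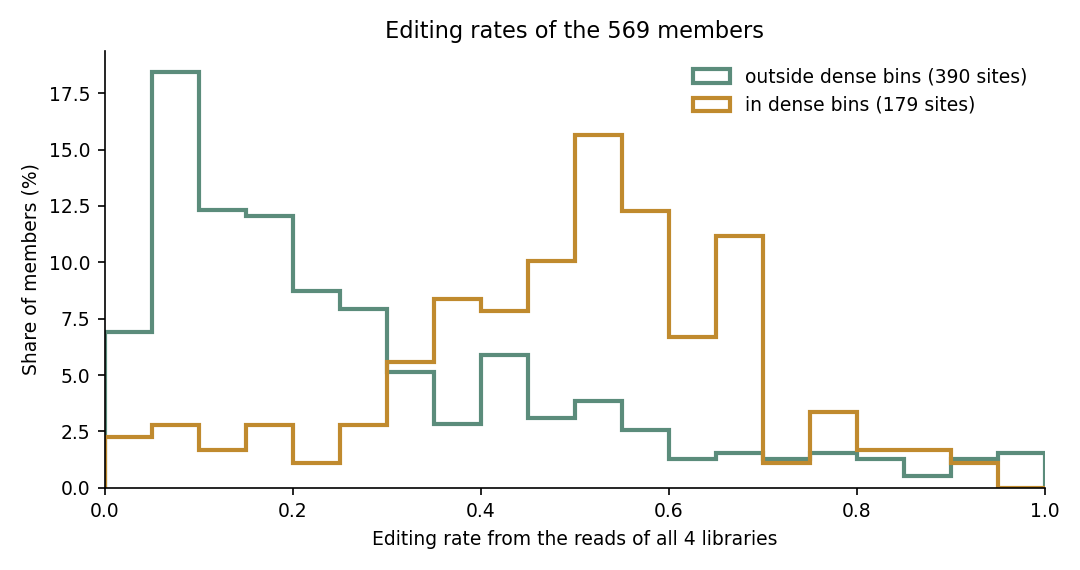
Share of member sites in percent against the editing rate with the reads of all 4 libraries joined, in steps of 0.05, for the 390 sites outside and the 179 sites inside dense bins. The sites outside gather below 0.3 around a median of 0.2, and those inside gather between 0.3 and 0.7 around a median of 0.514.

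CON minus TM was smaller inside the dense bins. Over all members it was 0.0196 in EC1 and 0.0239 in EC2 inside, and 0.0781 and 0.0751 outside. For PB1 it was -0.00197 and 0.0145 inside, and 0.0737 and 0.0872 outside, where PB1 minus B1 was -0.0146 in EC1 and 0.0116 in EC2. For MIR it was 0.0556 and 0.0147 inside and 0.105 and 0.0174 outside, and ID had no common pattern, with 0.0591 and 0.102 inside and 0.107 and -0.00208 outside. Of the 67 sites higher in CON in both mice 14 lay in dense bins, and of the 11 higher in TM 9 did, including F11r, Rasal2, Rin3, Glrx5 and Foxn3. Of the 15 sites called by the Fisher exact test 2 did, in Tox4 and Urb2. Outside dense bins, 53 of 124 sites were higher in CON in both mice (42.7%, against 25.8% of all sites there) and 2 were higher in TM (1.61%, against 9.35%). Inside them, 14 of 69 sites were higher in CON in both mice (20.3%, against 13.8% of all sites there). The 9 of 69 higher in TM were a share close to that of all sites there (14.5%). Of all 949 sites higher in TM in both mice, 464 lay in dense bins, so this placement was not particular to the members.

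**Figure D5:**
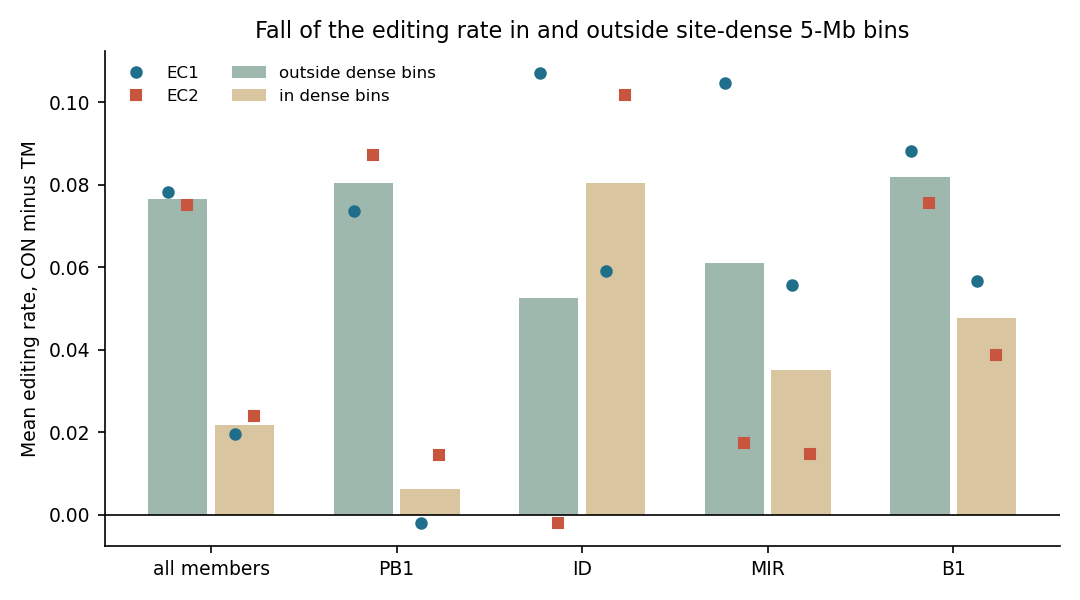
Mean editing rate in CON minus that in TM for all members, PB1, ID, MIR and B1, outside (green bars) and inside (tan bars) dense bins, with bars for the mean of 2 mice, circles for EC1 and squares for EC2. For PB1 the points stand at 0.0737 and 0.0872 outside and at -0.00197 and 0.0145 inside, while for ID the points of the mice lie far apart.

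The difference was larger in 3′ UTRs than in introns in both mice. In 3′ UTRs the mean rate of member sites went from 0.180 to 0.0637 in EC1 and from 0.199 to 0.0795 in EC2, so that CON minus TM was 0.116 and 0.119, over 57 and 78 sites. In introns CON minus TM was 0.0524 and 0.0485. The gap between the regions was 0.0673 ± 0.00478 (SD, n = 2 mice), with an exact sign p of 0.5, the smallest that 2 mice allow. Outside dense bins the gap in EC1 was smaller: CON minus TM was 0.108 in 3′ UTRs and 0.0753 in introns of EC1, and 0.124 and 0.0591 in EC2. The PB1 gap was 0.0544 and 0.0657 over all bins, and 0.0144 and 0.0499 outside dense bins. ID went the other way in EC2, with 0.0227 in 3′ UTRs and 0.115 in introns on 7 and 14 sites. In PB1 alone, 3′ UTR sites had 0.108 and 0.119 and those of B1 had 0.101 and 0.119. Of the 87 member sites in 3′ UTRs, 89.7% had a joined rate under 0.3, and they belonged to 39 genes.

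Elements with 2 or more sites also had a larger difference, 0.0829 in EC1 and 0.103 in EC2, than elements with 1 site, 0.0488 and 0.0293. Outside dense bins the values were 0.0920 and 0.116 against 0.0686 and 0.0384, so the gap in EC1 was smaller there. This contrast was not separated from gene region. The element with most sites was the PB1D9 copy in the 3′ UTR of Usp45 (chr4:21834527-21834641), with 6. Beside 21834548, sites 21834549 and 21834557 were listed in both CON libraries, with 4 of 20 and 4 of 21 altered reads in EC1, and in neither TM library. The depth in EC1 TM was at most 9 where it was listed, which leaves a rate of that library poorly determined. Pcyox1, a prenylcysteine oxidase, had 4 sites in a PB1D9 element, among them 86386478 with 4 of 12, 5 of 14, 12 of 18 and 1 of 13, where the mice went opposite ways.

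Opposite-strand copies were searched among the SINEs listed in the site table, taking for each element the nearest one of the same repeat family (Alu for PB1 and B1) on the other strand within 2000 bases. Such a copy was found for 209 of 352 PB1 elements (59.4%, Wilson interval 54.2 to 64.4), 6 of 67 MIR elements (8.96%, 4.17 to 18.2) and 3 of 38 ID elements (7.89%, 2.72 to 20.8). The share was 74.1% in B1, 52.9% in B2 and 18.7% in B4. Among PB1 elements with a site higher in CON in both mice it was 39 of 45 (86.7%), and among such B1 elements 89.1%. An element that holds no listed site cannot be found this way, so these shares are lower limits and also follow how many copies of a family the table lists. Both the listing of a copy and the choice of sites higher in CON in both mice require reads. Whether the shares follow read depth was not tested.

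The copies could be aligned where both were read from transcripts. The MIRb copies of Cds2 (chr2:132309626-132309759, antisense, and chr2:132309842-132309931, sense) lay 82 bases apart, and 53 of 69 aligned columns were identical (76.8%) after one was turned to the other strand. Both copies of this pair were edited, with 5 sites each. Across 33 PB1 elements the median identity to the opposite copy was 64.7%, and these partners were B1 or other PB1 copies. The Usp45 element had a B1_Mus1 copy 44 bases away with 73.3% identity, that of Nras a B1_Mus2 copy 533 bases away with 67.2%, and that of Rbm8a a B1_Mus1 copy 66 bases away with 64.8%. In Atxn3, the ID4 copies 1698 bases apart had 69.2% identity, and each held 1 member site.

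The bases beside the sites could be read for 134 of the 569 members, mostly in 3′ UTRs, and all 134 had an A on the strand of the gene. The base before the site was G at 8 of them (5.97%, Wilson interval 3.06 to 11.3) and T at 41.0%, while before the other 2003 A bases of the same elements it was G at 25.6% and T at 18.5%. The base after the site was G at 48.5%, against 34.1% for the other A bases. Of the 33 readable sites higher in CON in both mice, 0 had a G before them, which at this number allows a share of up to 10.4%, and 54.5% had a T. In the stretches printed above, the called A follows a T in Nras, Rbm8a, Ppp1r15b and 2 of the Cds2 stretches, as does site 21834548 of Usp45. The members shared this base pattern with B1, where G stood before 7.64% and T before 37.1% of sites.

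The limits of the rule lie where few reads decide. In some library, 31 members had exactly 5 reads with 3 altered, for which the Wilson interval runs from 0.231 to 0.882, and 44 sites that were not taken had 5 reads with 2 altered. Just inside were 36151414 in Uggt1, with 3 of 5 in EC2 TM and 1 read in EC2 CON, and 118327913 in Nifk, with 3 of 5 in EC2 CON and 6 of 6 in EC1 CON. Just outside was 155883768 in Cep350, with 2 of 5 in EC2 TM and 1 of 3 in EC1 CON. By their coordinates, 3 members lay on the base beside the element they were given to.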

How the data were processed

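RNA-seq of 4 rRNA-depleted libraries was used. Per the submitters' processing notes, reads were trimmed with Trimmomatic 0.38, aligned to mm10 (GRCm38) with STAR 2.6.1a and counted with HTSeq 0.11.2, and the authors deposited raw counts per gene. Entries naming no gene held 92.8% to 93.9% of counts as reads on no gene, and they were left out of gene totals. For editing, variants were called by the authors in each library (BCFtools mpileup), changes from A to G in genes of the plus strand and from T to C in those of the minus strand were retained and annotated with RepeatMasker, and the deposited values are reads for each base with the rate as a fraction. Rates were recomputed from the reads and set to 0 at sites a library lacks. Depth is unknown there. Columns were given to libraries through the study's site table, equal at 1998 of 1998 sites held. The depth of 5 to 759 reads at passing members sets the precision of each rate.

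CON and TM were paired by mouse, since both cultures came from 1 animal. At 169 members with at least 5 reads in all 4 libraries, deviations of same-numbered libraries had a correlation of 0.335. Tests were the exact sign permutation over mice, and per site the Fisher exact test and the Cochran-Mantel-Haenszel chi-square test. The tests per site were Benjamini-Hochberg adjusted at 0.05 over all sites tested. They were run in Python 3.11.15 with scipy 1.17.1 and statsmodels 0.14.6. The tests per site were first tried on reads simulated at the depths of EC1, and the sign permutation was not. Alternatives changed depth, altered reads, rate limits, listing, weighting and block. Sites were named when called in a mouse, in an element with at least 4 sites, among the 10 (CON) or 5 (TM) largest differences, among the 5 deepest per family that met the limits in all 4 libraries, or at the limits of the rule, and Atxn3 was named after its values were seen. Element starts were moved to 1-based coordinates, and sequences came from GENCODE vM21 transcripts. A genome search for inverted copies was not run, since no genome sequence was used here. Members and lists were chosen with earlier results of these data known. Columns holding the authors' own comparisons were not used. Of the sites at the limits of the rule, 1 is not reported here.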

Additional observations from a re-analysis of the deposited data

Results flagged for a closer look

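The mean differences of elements named PB1 and PB1D11 had the other sign from the rest of PB1. The mean CON minus TM was -0.118 over the mice for the elements named PB1, with -0.117 in EC1 and -0.119 in EC2 on 9 and 11 sites, and -0.0419 for PB1D11, with -0.00752 and -0.0763 on 16 and 8 sites. Both were negative in both mice, whereas PB1D7, PB1D9, PB1D10, ID4 and MIRb were positive in both. By the rate limits, 2 of 5 sites named PB1 and 0 of 5 in PB1D11 were higher in TM in both mice, and 1 of 5 in PB1D11 was higher in CON in both. Of the 15 sites named PB1, 9 lay in dense bins. The difference between these names was not tested.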

How the results depend on the processing

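As a mean over the mice, CON minus TM stayed positive under each of 11 alternatives over all members (0.0446 to 0.0766) and 11 in PB1 (0.0445 to 0.0805). The same held under 12 in the ancient group (0.0200 without Cds2 to 0.0907 at a depth of 20). Leaving out a mouse gave 0.0146 to 0.0803 there. Averaged over elements, the ancient group had 0.0606 in EC1 and -0.0162 in EC2. In ID the mean stayed positive under 10 of 11. The exception was -0.00244 over sites listed in both libraries of the mouse, with 0.0772 in EC1 and -0.0821 in EC2. PB1 minus the ancient group reversed to -0.00581 with no replicate block, -0.0145 at a depth of 10, -0.0316 at a depth of 20, -0.00788 over sites listed in both libraries and -0.0227 with reads summed, and leaving out a mouse gave -0.0251 to 0.0522. The causes were not tested. Sites higher in CON in both mice numbered 67, against 46 if listed in both libraries and 41 at a depth of 20. They numbered 44 with 5 altered reads, 39 at a difference of 0.10 and 3 by the Fisher test. With no replicate block there were 256, and in 1 mouse 183 to 206. Those higher in TM numbered 11, against 7 at a depth of 10, 1 at a depth of 20, 7 at a difference of 0.10, 5 if listed in both libraries, 0 by the Fisher test, 143 with no replicate block, 2 without dense bins and 92 to 106 in 1 mouse. The calls on reads were 15 in either mouse, 30 of 120 sites in the test with the replicate block, which also joins the mice and tests fewer sites, and 4 in EC1 or 14 in EC2 alone, and without the block, Fisher exact tests on reads summed over the mice called 22, with 12 shared and Ikbip 91097728 (adjusted p = 0.0743), Tox4 52294229 (0.215) and St3gal2 110972577 (0.0514) lost. Permuting the 4 libraries without the block cannot give a p below 0.333. Passing members in CON and TM of EC1 and then of EC2 were 149, 72, 121 and 113 at a depth of 20, and 154, 82, 152 and 141 with 5 altered reads. Within 1000 bases, 46.6% of PB1, 8.96% of MIR and 0 ID elements had an opposite copy. Dense bins, the omission of Cds2 and the search among listed copies were chosen after seeing the data. The sign test over 2 mice cannot give a p below 0.5, and depth limits the single sites.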
